A study of Rattus norvegicus and Homo sapiens with 12 samples.

Results

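The basal and luminal keratins examined here are KRT5, KRT6A, KRT7, KRT8, KRT15, KRT17, KRT18, KRT19, KRT80 and KRT81, 10 genes chosen by name from 55 annotated protein-coding keratin genes and found by Ensembl identifier in the human table of 60107 genes. Their RNA was compared between F0 and F2 DU145. DU145 is a human prostate cancer (PCa) cell line, and F0 is its parental population. F2 is the population recovered after repeated rounds of 72 h in conditioned medium (CM) of mesenchymal stem cells (MSCs). The methods of the study name human MSCs bought from Lonza and MSCs isolated from mouse bone. They do not say which gave the medium for the DU145 selection. The labels of the samples give 2 rounds, and the text of the series gives 3. F0 and F2 had 3 samples each, and no source used here says whether the F2 samples came from separate selections, so p-values describe the spread between these samples, which may be technical.

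Keratins form the intermediate filaments of epithelial cells. Each filament is built from pairs of an acidic type I and a basic type II keratin, and the partners are chosen by cell type. In the prostate, KRT5, KRT14 and KRT15 are known as keratins of basal cells, KRT8 and KRT18 as the pair of luminal cells, KRT7 and KRT19 as simple epithelial keratins often found with them, and KRT6A and KRT17 as keratins of stressed or activated epithelium. KRT80 is a broadly expressed type II keratin of epithelia, and KRT81 is a hair keratin.

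In the spliced coding sequences of GENCODE release 29 on GRCh38, KRT7 and KRT8 were 71.3% identical, KRT18 and KRT19 61.4%, and the partners KRT8 and KRT18 55.4%.

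RNA was read with QuantSeq, which reads 1 fragment per transcript, close to its 3′ end. CPM, the counts of a library scaled to a common total, therefore compare genes without division by length. A member's reads have to be told apart at the 3′ end. In the last 300 bases of each member's main transcript, 20 windows of 101 bases (the read length) were taken. They were searched for exact matches in all annotated transcripts, pseudogenes included. For all 10 members 0 windows were found in another gene. A copy with any differing base in a window was not counted, and sequence outside annotated transcripts was not searched. Among the chosen pairs of keratin genes whose coding sequences were compared, the closest were those of KRT81 and KRT6A with their copies. No pseudogene was in these pairs. The last 30 coding bases, stop codon included, show how close they are. They come from the same annotation and are written 5′ to 3′ on the strand of each gene, with capitals at bases that differ from the member.
KRT81: tcttgcggcagcagctgccggaaatgttag
KRT86: GTCtgcggcGgcagctgTAAgaGGtgCtag
KRT6A: tcctccagcaggaagagctataagcactaa
KRT6B: tcctccagcaggaagagctaCaagcactGa
KRT6C: tcctccagcaggaagagctaCaagcactaa
KRT86 differed from KRT81 at 10 of these bases and had 90.9% identity over the coding sequence. KRT83, not printed here, had 89.7% identity with KRT81. KRT6B and KRT6C had 97.5% and 97.9% identity with KRT6A.

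Gene counts per library lay between 16029876 and 16479239 for F0 and between 15879480 and 16217918 for F2. The epithelial markers EPCAM and CDH1 were detected in every library, with mean levels (± SD, n = 3) of 30.2 ± 1.59 and 14.0 ± 1.79 CPM for F0, against 35.0 ± 1.10 and 5.78 ± 0.0915 CPM for F2, whereas the luminal secretory marker KLK3 had a mean of 0.0197 CPM in F0 and 0 in F2. Of 22 MSC markers, 8 had 0 counts in all 6 libraries, among them THY1, LUM, SPARC, CXCL12 and POSTN. All 22 summed to between 197 and 209 CPM in F0 and between 249.9 and 267 CPM in F2, most of it from NT5E, with means of 158 CPM for F0 and 222 CPM for F2. The 20 that lay under 10 CPM in F0, a subset picked by that level, summed to between 10.9 and 12.2 CPM in F0 and between 7.84 and 8.63 CPM in F2. Their part in the keratin values was not tested. Mitochondrially encoded genes took 5.86% ± 0.145 of the F0 counts and 10.4% ± 0.201 of the F2 counts. They stay within the scaling by TMM used for all values, and leaving them out changed no member's call. With bulk RNA, fewer cells with a keratin and less of its RNA per cell cannot be told apart.

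Of the 10 keratins, 7 had enough counts to be tested. F2 had more KRT8, KRT18 and KRT19 and less KRT7 and KRT80, each with an adjusted p under 0.05 in the quasi-likelihood test of edgeR, adjusted by Benjamini-Hochberg over all 14316 tested genes. KRT15 and KRT81 did not pass, and KRT5, KRT6A and KRT17 had 0 counts. The 5 called members, 3 higher and 2 lower, stand against a background of 18.2% of all tested genes called, 9.49% higher and 8.67% lower. With scaling by library size alone, the calls over all genes were split into 832 higher and 2805 lower. Among the 3750 tested genes with a mean of at least 50 CPM, where all 5 called members lie, 29.7% were called. The F0 and F2 libraries did not overlap for 4 members (KRT7, KRT18, KRT19 and KRT80), against 34.0% of all tested genes. An exact permutation test of 1 gene with 3 against 3 samples cannot give a p below 0.1.

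**Figure D1:**
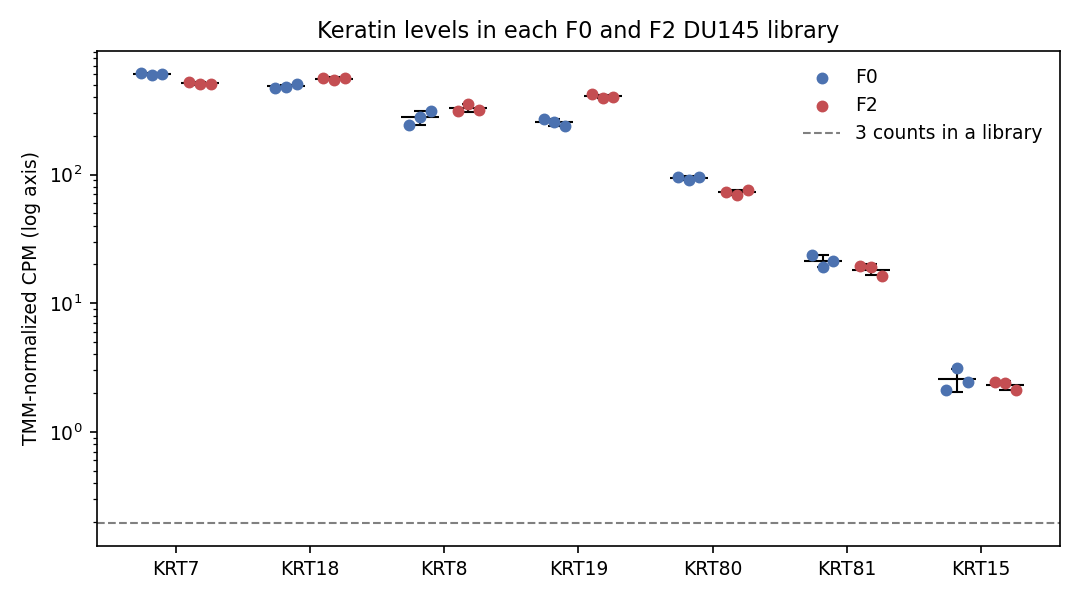
TMM-normalized CPM (log axis) of the 7 keratins that were tested, with 1 point per library, F0 in blue and F2 in red, and black bars for mean and SD (n = 3). KRT7, KRT18, KRT19 and KRT80 separate F0 from F2, and KRT15 lies near 2.5 CPM but above the dashed line, the highest level that 3 counts gave in any library (0.195 CPM).

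The member with the highest level in F0 was KRT7 (ENSG00000135480, plus strand of chromosome 12, 52232520 to 52252186 in GRCh38), a type II keratin of simple epithelia. Its level was 613, 597 and 599.8 CPM in F0 and 523, 503 and 506 CPM in F2. All F2 libraries lay below all F0 libraries, and the 3 libraries of a group lay close together. The mean fell from 603 ± 8.64 to 511 ± 10.9 CPM (± SD, n = 3). The log2 fold change was -0.24 with a standard error of 0.041 (edgeR, adjusted p = 0.00032). It passed the threshold in all 6 fits that left out 1 library. KRT7 took 34.7% ± 0.946 of the counts of the 10 keratins in F0 and 27.0% ± 0.333 in F2.

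KRT18 (ENSG00000111057, plus strand of chromosome 12, 52948871 to 52952901) is the type I partner of KRT8 in luminal cells and, unlike the other type I genes, lies in the type II cluster. Its level was 468, 483 and 502 CPM in F0 and 563, 539.9 and 566 CPM in F2. Each F2 library was above each F0 library. The mean rose from 484 ± 17.1 to 556 ± 14.4 CPM (± SD, n = 3). The log2 fold change was 0.20 with a standard error of 0.043 (edgeR, adjusted p = 0.0026). The order of KRT7 and KRT18 thus differed between the populations, with KRT7 above KRT18 in all F0 libraries and below it in all F2 libraries. The rise of KRT18 was called in all 6 fits without 1 library, but with scaling by library size alone the log2 fold change was 0.11 (adjusted p = 0.065 from edgeR).

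KRT8 (ENSG00000170421, minus strand of chromosome 12, 52897187 to 52949954) had 243, 279 and 312 CPM in F0 and 311, 354 and 318 CPM in F2. The groups touched, since F0 replicate 3 lay above F2 replicate 1, and F0 replicate 1 was the lowest of the 6. The mean rose from 278 ± 34.2 to 328 ± 23.4 CPM (± SD, n = 3). In log2 terms F2 was higher by 0.24, standard error 0.068 (edgeR, adjusted p = 0.019). This call was less stable than that of KRT18, as it was lost without F0 replicate 1 (log2 fold change 0.15, adjusted p = 0.085), F0 replicate 2 (0.24, adjusted p = 0.079) or F2 replicate 2 (0.18, adjusted p = 0.056), and with library size alone (0.15, adjusted p = 0.13). KRT8 and KRT18 lie head to head on opposite strands, and their annotated exons overlap by 525 bases. The ratio of KRT8 to KRT18 counts was 0.520, 0.578 and 0.621 in F0 and 0.552, 0.656 and 0.561 in F2, and these ranges overlapped.

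KRT19 (ENSG00000171345, minus strand of chromosome 17, 41523617 to 41528308), the smallest of the type I keratins and one without the usual tail domain, showed the largest difference among the 7 tested members. Its level was 270.2, 255 and 239 CPM in F0 and 421, 396 and 399.5 CPM in F2. The lowest F2 library was well above the highest F0 library. The mean rose from 255 ± 15.8 to 405 ± 13.4 CPM (± SD, n = 3). In log2 terms F2 was higher by 0.67 with a standard error of 0.049 (edgeR, adjusted p = 8.9e-09), a rise of 1.59-fold. It kept its call in all 16 alternative settings, where the log2 fold change lay between 0.58 and 0.71. Relative to KRT18, the count ratio of KRT19 was 0.527 ± 0.0513 in F0 and 0.728 ± 0.0211 in F2, with no overlap.

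KRT80 (ENSG00000167767, minus strand of chromosome 12, 52168996 to 52192000) lies at the outer end of the type II cluster. Its level was 96.1, 90.8 and 95.6 CPM in F0 and 73.2, 69.2 and 75.2 CPM in F2, so that the groups did not overlap. The mean fell from 94.1 ± 2.92 to 72.6 ± 3.06 CPM (± SD, n = 3). This was a log2 fold change of -0.38, standard error 0.054 (edgeR, adjusted p = 5.5e-05). It was called in all 16 alternative settings. LINC00592 spans all of it on the other strand, and it had at most 5 counts in a library and shares no exonic base with KRT80.

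KRT81 (ENSG00000205426, minus strand of chromosome 12, 52285913 to 52291534) was the only hair keratin among the 10, and it was detected in every library, at 398, 317 and 360 counts in F0 and 306, 292 and 255 counts in F2. These are 23.5, 19.2 and 21.3 CPM against 19.6, 19.0 and 16.3 CPM. F2 replicate 1 lay above F0 replicate 2, so the groups overlapped. The log2 fold change was -0.22 with a standard error of 0.099 (edgeR, adjusted p = 0.13), and its normal 95% interval reached from -0.42 to -0.03. It passed with library size alone (-0.31, adjusted p = 0.027).

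KRT86, another hair keratin, spans all of KRT81 on the opposite strand and reaches over 2887 bases of KRT7 on the same strand, with 0 exonic bases in common with either. It had 118, 91 and 111 counts in F0 and 51, 48 and 15 in F2, with F2 replicate 3 the lowest, and its log2 fold change was -1.38 with a standard error of 0.26 (edgeR, adjusted p = 0.00085). Without F2 replicate 3 it was -0.99. With the counts of KRT81, KRT83 and KRT86 summed, the log2 fold change was -0.41 and passed the threshold (adjusted p = 0.0074). Adding KRT86 to KRT7, an alternative chosen after the data were seen, left the call of KRT7 as it was. The setting for strand in the counting is not given in the sources used here, so reads of genes on opposite strands may have been mixed.

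Of the basal keratins, KRT15 (ENSG00000171346, minus strand of chromosome 17, 41513743 to 41522529) was the one detected. It had 36, 52 and 41 counts in F0 and 38, 37 and 33 in F2, or 2.13, 3.15 and 2.43 CPM against 2.43, 2.40 and 2.10 CPM. F0 replicate 2 was the highest library, and the other 5 lay close together. The log2 fold change was -0.15 with a standard error of 0.23 (edgeR, adjusted p = 0.71), with a normal 95% interval from -0.60 to 0.30, and without F0 replicate 2 it turned to 0.02. KRT15 begins 1087 bases downstream of the end of KRT19 on the same strand, so these neighbours differed in level, at 2.57 ± 0.526 and 255 ± 15.8 CPM in F0.

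KRT5 (ENSG00000186081, minus strand of chromosome 12, 52514575 to 52520687), the type II keratin that defines basal cells, had 0 counts in all 6 libraries. So did KRT6A (ENSG00000205420, minus strand of chromosome 12, 52487174 to 52493257) and KRT17 (ENSG00000128422, minus strand of chromosome 17, 41619441 to 41624842), the keratins of stressed epithelium. A count of 0 allows a level of up to 3 counts, between 0.177 and 0.195 CPM depending on the library, for counting error only. No difference between F0 and F2 was detectable at this depth. KRT14, the type I partner of KRT5, and KRT6B and KRT6C, the copies of KRT6A, also had 0 counts, and KRT16, the usual partner of KRT6A, had between 0 and 3. The 8 annotated pseudogenes of KRT17 had 0 counts as well. Reads that met no counted feature of a gene made up 9.81% ± 0.213 of uniquely placed reads in F0 and 11.6% ± 0.303 in F2. Whether any come from these genes was not tested.

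**Figure D2:**
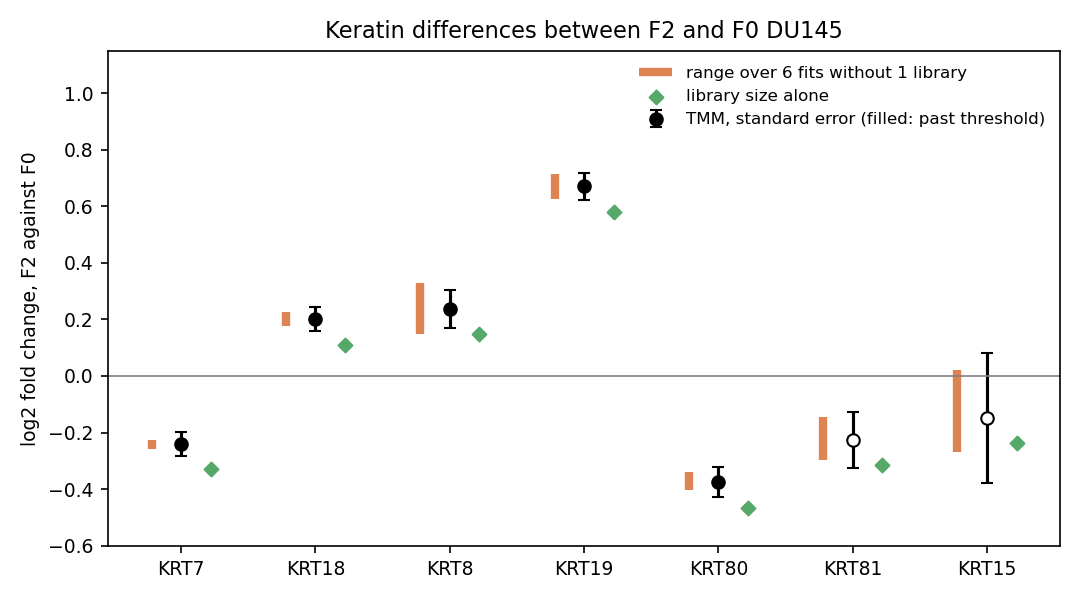
Log2 fold change of F2 against F0 for the 7 tested keratins, with standard error (black, filled where the adjusted p was under 0.05), the range over the 6 fits that each left out 1 library (orange bar) and the value with scaling by library size alone (green). KRT19 stands highest at 0.67, KRT80 lowest at -0.38, and only the bar of KRT15 crosses 0.

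Together the 10 keratins took 0.179% ± 0.00345 of all counts in F0 and 0.183% ± 0.00161 in F2, and the groups overlapped. As TMM-normalized CPM their sum was 1738 ± 29.1 in F0 and 1893 ± 17.3 in F2 without overlap, so whether the total differed rested on the scaling. The makeup of this total does not depend on scaling. Type II keratins held 56.9%, 57.1% and 58.1% of the members' counts in F0 and 48.4%, 50.2% and 48.6% in F2. The ratio of type II to type I counts was 1.34 ± 0.0350 in F0 and 0.964 ± 0.0381 in F2 (SD, n = 3 each). No library of one population reached the range of the other. Between KRT7, the most abundant member in F0, and KRT19, the tested member with the largest rise, the count ratio was 2.37 ± 0.126 in F0 and 1.26 ± 0.0147 in F2. With all 55 keratin genes, KRT10 among them, the ratio was 1.10 ± 0.0174 in F0 and 0.822 ± 0.0374 in F2. These ratios are described without a test, since the members were chosen by name with earlier results known.

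**Figure D3:**
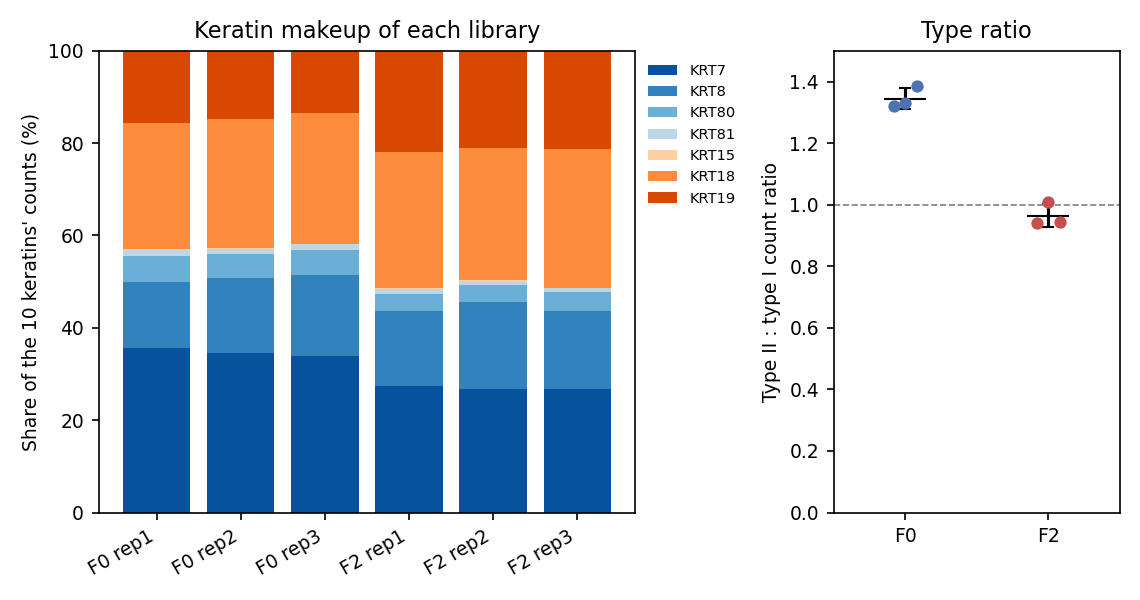
Left, share of the 10 keratins' counts taken by each member in each library (%), type II in blue shades and type I in orange shades. Right, ratio of type II to type I counts per library with mean and SD (n = 3), where the F0 libraries lie between 1.32 and 1.38 and the F2 libraries between 0.94 and 1.01.

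Processed copies of keratin genes are common in the genome and could take or lend reads. Of 67 annotated pseudogenes of KRT18, 34 had a count, and together they held 0.635% of the summed counts of KRT18 and its pseudogenes. KRT18P62 had the most, with 19, 9 and 19 counts in F0 and 14, 11 and 18 in F2. For KRT8, 7 of 51 pseudogenes had a count (0.320% of the summed counts of KRT8 and its pseudogenes). KRT8P12 led them, with 18, 9 and 9 counts in F0 and 8, 19 and 10 in F2. The 5 pseudogenes of KRT19 had 0 counts. Of 149 keratin pseudogenes in all, KRT18P62 alone was tested, and it was not called (adjusted p = 0.98 from edgeR). Adding these counts to their genes changed no call. Reads with several alignments are not assigned to genes, at 0.604 ± 0.0172 per gene count in F0 and 0.551 ± 0.0188 in F2, and their part in the keratin values was not tested.

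Of the 45 other keratin genes, 39 had at most 3 counts in every library and 4 were tested, of which 2 were called, KRT86 and KRT4, both lower. KRT4, a type II keratin of stratified mucosa that also marks hillock cells, had 16, 22 and 22 counts in F0 and 0, 0 and 8 in F2, and its log2 fold change was -2.75 with a standard error of 0.64 (edgeR, adjusted p = 0.0052). The counts are small, and DESeq2 gave a log2 fold change of -2.81 with an adjusted p of 0.27. KRT4 passed the filter through its F0 counts alone, so it could only be called lower. Without F2 replicate 3 the F2 libraries were all at 0 and the fitted value was -7.29, which depends on the prior count and is no measure of size. KRT10, the type I keratin of differentiated epidermis, had a level of 169.9 ± 10.9 CPM (SD, n = 3) in F0 and of 169.5 ± 13.2 CPM in F2 and did not pass (adjusted p = 0.98 from edgeR). KRT32, a hair keratin, had 10, 8 and 9 counts in F0 and 12, 14 and 13 in F2 and did not pass either (adjusted p = 0.28 from edgeR). Of 111 keratin-associated protein genes, which encode matrix proteins of hair, KRTAP2-3 alone was tested. It lies in the keratin cluster of chromosome 17 and rose from 106, 129 and 98 counts in F0 to 323, 344 and 382 in F2 (log2 fold change 1.76, adjusted p = 2.9e-09 from edgeR). Whether its 3′ end can be told apart from those of other genes was not tested.

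The keratin cluster of chromosome 12 (52168996 to 52952901) holds 27 protein-coding keratin genes. The 7 of its genes that were tested were all keratins, and 6 were called, 2 higher (KRT8 and KRT18) and 4 lower (KRT7, KRT80, KRT86 and KRT4). Of these, KRT4 was tested through its F0 counts alone, so it could only be called lower, and DESeq2 did not call it. Over all of chromosome 12, 142 of 769 tested genes were called (18.5%), with a median log2 fold change of -0.041. In the cluster of chromosome 17 (40654665 to 41624842), KRT19 and KRTAP2-3 were the called genes among 6 tested, both higher. Over chromosome 17, 167 of 892 tested genes were called (18.7%), with a median log2 fold change of -0.004. Genes of 1 cluster thus differed in direction on chromosome 12.

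Keratin filaments end at desmosomes and hemidesmosomes. Among hemidesmosome and basement membrane adhesion genes, 8 of 11 were called, 7 higher and 1 lower, beside the background of 18.2%, and the list had a median log2 fold change of 0.26, against -0.002 over all tested genes. COL17A1, a transmembrane collagen of the hemidesmosome, had 113, 107 and 120 counts in F0 and 206, 215 and 216 in F2 (log2 fold change 1.01). ITGB4, the integrin subunit to which plectin ties keratins, had 145, 133 and 136 counts in F0 and 214, 196 and 202 in F2 (0.67). The laminin chain gene LAMA3 was lower (-0.40, called in 4 of the 6 fits without 1 library), while LAMB3, which encodes another chain of the same laminin, was named after its value was seen and rose by 0.36. The highest genes that did not pass were DST (adjusted p = 0.35 from edgeR) and ITGB1 (adjusted p = 0.25).

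Among genes of desmosomes and keratin linkers, 5 of 13 tested genes were called (38.5%, against 18.2% over all tested genes). Of these, 3 were higher and 2 lower, with a list median of 0.069. PERP and DSP, which encodes desmoplakin, the protein that anchors keratins at the desmosome, rose by 0.26 and 0.22 on the log2 scale, and were called in 4 and 2 of the 6 fits without 1 library. KAZN and PKP4 were lower, at -0.66 and -0.27, and PKP3 and DSC2 did not pass (adjusted p = 0.11 and 0.57 from edgeR). The number of calls in this list was 2 without F0 replicate 2 or without F2 replicate 3, and 3 without F2 replicate 1 or with library size alone. Among 14 keratin-binding and turnover factors, 3 were called, all higher, with a list median of 0.080. This share of 21.4% was near the 18.2% over all tested genes and below the 29.7% among genes of at least 50 CPM. The largest rises were those of SFN (0.29), which encodes a 14-3-3 protein that binds keratins, and HSPA8 (0.26), a chaperone called in 4 of the 6 fits without 1 library (0.17 without F2 replicate 3), and HSPB1 and CSNK1A1 did not pass (adjusted p = 0.19 and 0.24 from edgeR). Without F0 replicate 2, 1 of these factors was called.

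Prostate basal markers other than the members gave 11 calls among 14 tested genes (78.6%, against 18.2% over all tested genes). Of these, 7 were higher and 4 lower, with a list median of 0.10. Of these calls, 4 belong to genes that the hemidesmosome list also holds, and the 9 tested genes outside that list gave 3 higher and 4 lower. The largest rises of the list, COL17A1 and ITGB4, are given above. Outside the hemidesmosome list, CD44 and FHL2, named after their values were seen, rose by 0.64 and 0.36 on the log2 scale. Both were called in all 6 fits without 1 library. AQP3 fell, at -0.83 on the log2 scale, and was called in all 6 fits as well. SNAI2 was also called lower (-1.03, adjusted p = 0.038 from edgeR), but in only 1 of these 6 fits, and JAG2 did not pass (adjusted p = 0.25 from edgeR). With 12, 21 and 8 counts in F2, SNAI2 passed the filter through F0 alone, so it could only be called lower. TP63, the transcription factor that defines basal cells and activates KRT5 and KRT14, had 0 counts in all libraries. Of the prostate luminal markers, 8 of 20 were tested and 3 called, NDRG1 (0.92) and CD24 (0.65) higher and PMEPA1 (-0.32) lower. This was 37.5% of those tested, against 18.2% over all tested genes, and the list median was 0.14. FKBP5 did not pass (adjusted p = 0.94 from edgeR), and 11 of the 20 had at most 3 counts in every library. The club and hillock markers had 2 calls of 5 (40.0%, against 18.2% over all tested genes), WFDC2 higher (1.09) and KRT4 lower. Their list median was -0.006, and PSCA did not pass (adjusted p = 0.99 from edgeR). KRT4 was tested through its F0 counts alone, so it could only be called lower.

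Among 18 tested regulators of epithelial keratins, 8 were called (44.4%, against 18.2% over all tested genes, 8.67% lower). Of these calls, 7 were lower and 1 higher, and the list median was -0.19. TP73, a relative of TP63, had 19, 25 and 26 counts in F0 and 3, 7 and 1 in F2 (log2 fold change -2.52, adjusted p = 0.00086 from edgeR). ESRP1, a splicing regulator of epithelial cells, had 23, 29 and 20 counts in F0 and 5, 6 and 10 in F2 (-1.65, adjusted p = 0.0048 from edgeR). TP73 and ESRP1 passed the filter through their F0 counts alone, so they could only be called lower. With at least 10 counts required in every library, 6 genes of this list were called. SOX9 was the called gene that rose (0.33), and TFAP2A and KLF5 did not pass (adjusted p = 0.28 and 0.14 from edgeR). Of the 24 cornified envelope and squamous genes, 19 had at most 3 counts in every library. Among the 4 tested, 2 were called, both higher, beside the background of 18.2%. They were SFN and DMKN, which rose by 0.29 and 0.21, and the list median was 0.18. Both lie among the genes of at least 50 CPM, of which 29.7% were called. SFN is also counted among the keratin-binding factors above. CNFN and IVL did not pass (adjusted p = 0.22 and 0.86 from edgeR).

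Of the other intermediate filament genes, 6 of 12 tested genes were called, 2 higher and 4 lower, beside the background of 18.2%. The list median was -0.088. VIM, which encodes vimentin, the filament protein of mesenchymal cells, had a level of 1439 ± 87.9 CPM (SD, n = 3) in F0 and of 1453 ± 54.5 CPM in F2 and did not pass (adjusted p = 0.87 from edgeR), so its level was above that of KRT7 in every library. Nor did LMNB2 (adjusted p = 0.68). NES, which encodes nestin, and LMNA rose by 0.49 and 0.13 (called in 4 and 1 of the 6 fits without 1 library), and the neuronal filament gene INA and the lens filament gene BFSP1 fell, at -1.22 and -0.91. Without F2 replicate 3, 3 genes of this list were called. Of the MSC markers, 3 of 5 tested genes were called (60.0%, against 18.2% over all tested genes). NT5E was higher (0.49) and FN1 (-0.52) and TAGLN (-0.31) were lower, with a list median of -0.36. Without F2 replicate 1 or without F2 replicate 3, 1 was called. FN1 was called in 0 of the 6 fits without 1 library and TAGLN in 3, with -0.19 for TAGLN without F0 replicate 1. LEPR and COL1A1 did not pass (adjusted p = 0.20 and 0.39 from edgeR).

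**Figure D4:**
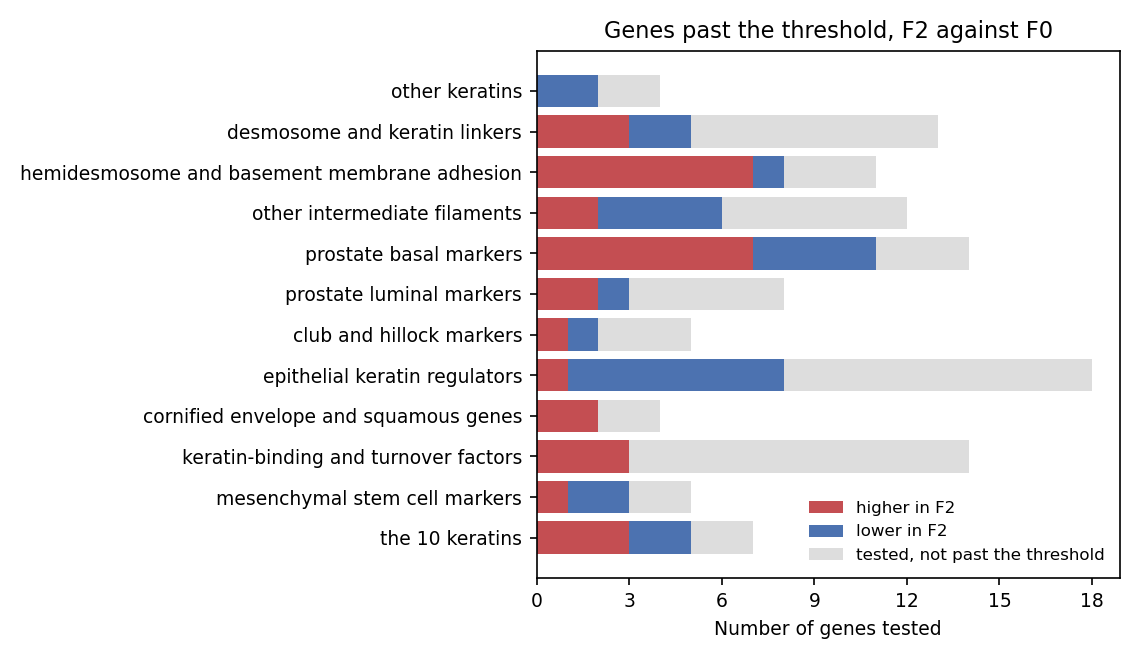
Number of tested genes in each list (bar length) and of those past the threshold, higher (red) or lower (blue) in F2, for the lists with at least 4 tested genes. The hemidesmosome list has 7 of its 8 calls higher and the keratin regulators 7 of their 8 calls lower, and the 10 keratins have 3 higher and 2 lower. Over all tested genes, 18.2% were called.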

How the data were processed

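QuantSeq libraries of F0 and F2 DU145 (3 each) were analysed as 1 table of raw counts per gene, which the authors deposited without normalization. The submitters' processing notes name STAR 2.5.2a, HTSeq 0.6.0 and GRCh38, and the annotation release is not given in the sources used here. Lines that name no gene (no counted feature, ambiguous, 1.50% and 1.39% of uniquely placed reads in F0 and F2, and multiply aligned) stayed out of library sizes and tests. The table of the rat line was not used here. Positions came from GENCODE release 29, and symbols from a list of gene names, or from that release where the list gave none. Both were matched by identifier.

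From these counts, low genes were removed with filterByExpr (at least 10 counts, total of 15), the rest scaled by TMM and tested with the two-sided quasi-likelihood test of edgeR 4.0.16 (R 4.3.3), without covariates, at an adjusted p under 0.05. DESeq2 1.42.0 was an alternative. CPM are TMM-normalized, and 3 counts were the floor. On simulated data of this comparison (14123 genes), 63.3% of changes of 0.5 on the log2 scale and 94.9% of those of 1 were recovered, with 2.52% false calls. No pair of replicates was close enough to be 1 library. From each list the 2 largest rises, the 2 largest falls and the 2 highest genes not called are named, and some of these are not reported here. Members and lists were chosen with earlier results of these data known.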

Additional observations from a re-analysis of the deposited data

How the results depend on the processing

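The members called were 4 to 6 over all 16 alternatives, against 5 in the main setting. With library size alone 1 member was called higher (KRT19) against 3, and of all genes 22.9% of the calls were then higher, against 52.3% with TMM, with a median shift of -0.09. Leaving out 1 library in turn gave 4 to 5 members called, 37 to 49 called genes in the lists around the keratins (48 in the main setting) and differences in the type II to type I ratio between -0.40 and -0.36 (-0.38 in the main setting). With all annotated keratin genes the difference was -0.28. Over the fits that left out 1 library, the log2 fold change of KRT15 ranged from -0.27 to 0.022 and turned without F0 replicate 2, and that of KRT10 ranged from -0.065 to 0.046 and turned without F0 replicate 3 (0.043), F2 replicate 1 (0.012) or F2 replicate 2. The other keratins kept their direction in the alternatives that could test them. Among the listed genes, other keratins had 1 call and club and hillock markers 1 with at least 10 counts in every library or with DESeq2, and luminal markers 5 with library size alone. Deviations of same-numbered libraries from their group means correlated at 0.01, -0.01 and 0.03. With 3 libraries per group this cannot show whether they shared a batch, and the labels give only the number. A fit with the replicate as a block called 5 members, and 2867 genes in all against 2599. In it the adjusted p of KRT8 was 0.0015, against 0.019 in the main setting (both edgeR). Left-out library fits with 2 samples in a group rest on a spread pooled over both groups. At 33 to 52 counts per library, the depth leaves an interval from -0.60 to 0.30 for KRT15.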
